A study of Mus musculus with 30 samples.

Results

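The mouse genes Oas1a, Oas2, Oas3, Oasl1, Oasl2, Eif2ak2, Ifih1, Dhx58 and Ddx60 were followed in RNA from forebrain and from microglia of mice without interleukin-34 (IL-34) activity. They are the Oas family and partner sensors of double-stranded RNA, 9 of the 51752 genes in the deposited count table, and were taken by gene name. They were chosen by measured values, the differences between the antibody arms being known, so those differences are described and not tested. All 9 names were found, each in 1 row.

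Double-stranded RNA is a sign of viral replication, and cells read it through several families of protein. Oligoadenylate synthetases (OAS) bind it and make short 2′-5′-linked adenylate chains that set off RNA decay, PKR stops translation when bound to it, and RIG-I-like receptors pass the signal to MAVS and so to interferon genes. Type I interferon in turn induces the genes of these same sensors through a complex that holds STAT2 and IRF9, in microglia as in other cells.

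RNA was sequenced from 30 libraries of 15 mice, each animal giving 1 library of whole forebrain and 1 of cells isolated from the other hemisphere with an antibody to CD11b, called microglia here. In the genotype experiment 3 Il34 knockout animals (KO: male 3, females 6 and 24) were compared with 4 heterozygotes (Het: males 1 and 21, females 20 and 23), so the controls also carry a deleted copy of Il34. In the antibody experiment wild-type mice were given a blocking antibody against IL34 (males 2, 10 and 24, female 11) or the control antibody, anti-gp120 (males 1 and 7, females 8 and 15). An animal number is unique only within an experiment. Age, strain, dose and schedule are not given in the sources used here, and IL-34 is one of the ligands of the receptor encoded by Csf1r, on which microglia depend.

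Totals ran from 15.1 to 75.2 M counts per library, and the deepest forebrain library was that of anti-gp120 animal 1. Il34 stood at 6.78 to 8.75 counts per M (CPM) in KO forebrain against 19.2 to 23.5 in Het, whereas the isolated cells overlapped (5.15 to 6.67 in KO, 4.89 to 9.82 in Het). Summed over 7 microglia markers, forebrain gave 218 to 247 CPM in Het, 96.8 to 113 in KO, 352 to 437 with anti-gp120 and 164 to 206 with anti-IL34. The isolates gave 9656 to 17187, 3653 to 4165, 12368 to 16471 and 5103 to 7845 in the same order, so the markers were present in all 15 isolates and lower in both arms without IL-34 activity. In such bulk samples fewer cells of a type and less RNA per cell cannot be told apart. Anti-gp120 animal 1 stood apart in the members' own levels, and the antibody comparison is given with and without it where leaving it out moves a ratio by over 1.5 times or a count.

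The 5 Oas and Oasl loci lie on chromosome 5 (GRCm38) without overlapping. Oas2, Oas3 and Oas1a are near one another, as are Oasl2 and Oasl1. Oas2 (chr5:120730333-120749853), Oas3 (chr5:120753098-120777661) and Oas1a (chr5:120896256-120907521) are on the minus strand, and Oasl2 (chr5:114896936-114912234) and Oasl1 (chr5:114923240-114937915) are on the plus strand. Eif2ak2 is at chr17:78852564-78882573 on the minus strand, Ifih1 at chr2:62595798-62646255 on the minus strand, Dhx58 at chr11:100694884-100704271 on the minus strand and Ddx60 at chr8:61928087-62038244 on the plus strand. Oas1a is uncertain as a single gene, because 57.6% of the 50-base windows of its transcripts (1057 of 1836) also occur in transcripts of another gene, all of them in Oas1g. For the other 8 members that share was at most 0.31%. Dhx58 overlaps the antisense gene Dhx58os over 2637 bases, and over the 30 libraries the whole of Dhx58os had 355 counts and the whole of Dhx58 7997. The strand setting of the counting is not given in the sources used here.

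The promoters are shown because the members varied together between animals, as described further on. RefSeq promoter sequences (GRCm38.p6, 250 bases before to 50 after the start) were at hand for 7 of the 9 members, Oas2 and Dhx58 being those without one. The core of the interferon-stimulated response element, GAAA, any 2 bases and GAAA again, on either strand, was found in 5 of the 7 (Oas1a, Oas3, Eif2ak2, Ifih1 and Ddx60), and in 3.44% of all 32851 promoters of that length. The core of the gamma-activated site, TTCNNNGAA, was in 2 of the 7 (Oas1a and Eif2ak2) and in 8.30% of all promoters, and neither core was in the windows of Oasl1 and Oasl2. A match of letters is a description and not a bound site. Capitals mark the response element core only, the GAAA pair, in the stretches below, written 5′ to 3′ along the gene's strand.
Oas1a, chr5:120907526-120907625, minus strand, the 100 bases before the start: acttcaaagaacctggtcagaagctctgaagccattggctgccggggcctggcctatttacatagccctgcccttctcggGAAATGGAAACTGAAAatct
Oas3, chr5:120777660-120777759, minus strand, the 100 bases before the start: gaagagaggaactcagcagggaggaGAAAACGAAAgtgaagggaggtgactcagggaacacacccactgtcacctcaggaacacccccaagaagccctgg
Ddx60, chr8:61927987-61928086, plus strand, the 100 bases before the start: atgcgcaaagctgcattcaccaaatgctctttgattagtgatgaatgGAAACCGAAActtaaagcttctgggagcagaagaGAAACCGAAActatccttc
Eif2ak2, chr17:78882535-78882564, minus strand, 30 bases after the start: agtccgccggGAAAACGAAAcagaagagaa
Ifih1, chr2:62646206-62646235, minus strand, 30 bases after the start: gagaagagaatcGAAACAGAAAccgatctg
Oas1a carried 2 overlapping matches between 20 and 5 bases before its start, and Ddx60 carried 2 separate ones between 53 and 10 bases before. In Oas3 the match began 75 bases before the start, and in Eif2ak2 and Ifih1 it lay in the transcribed part, from base 19 and base 33 on.

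All 9 genes were higher in isolated microglia than in forebrain of the control animals. Each passed the edgeR quasi-likelihood test with Benjamini-Hochberg adjustment at 0.05 over all genes, against a background of 40.5% of 19952 genes that passed as higher (83.5% passed in either direction, 84.2% at an unadjusted p under 0.05). Differences ran from 2.40 on the log2 scale for Eif2ak2 (SE 0.147, adjusted p 2.12e-10) to 6.25 for Oasl1 (SE 0.501, adjusted p 5.74e-09). In each of the 9 the lowest of 8 microglia libraries was above the highest of 8 forebrain libraries. For Oasl2 these were 12.6 and 6.77 CPM on the scale shared by both tissues. The share of all genes with tissues apart in this way was not counted, so nothing is read from that count.

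Levels between genes were compared as CPM per kb of exon in the 8 control animals. Eif2ak2, which encodes PKR, was the highest of the 9 in both tissues, at 12.7 ± 3.67 (SD, n = 8) in microglia and 2.40 ± 0.259 in forebrain. Below it in microglia came Oas1a at 5.94 ± 3.92, Oas2 at 5.27 ± 3.44, Ifih1 at 5.24 ± 1.73, Oasl1 at 4.58 ± 2.62, Oasl2 at 4.38 ± 3.53, Ddx60 at 3.81 ± 1.24 and Dhx58 at 3.39 ± 1.93. Neighbours among these 7 differed by less than their SD, and Oas3 was last at 0.367 ± 0.421. The forebrain order was Eif2ak2, Ifih1 (0.795 ± 0.107), Oasl2 (0.558 ± 0.227), Dhx58 (0.391 ± 0.112), Oas1a (0.343 ± 0.243), Ddx60 (0.231 ± 0.0924), Oas2 (0.170 ± 0.0813), Oasl1 (0.0647 ± 0.0379) and Oas3 (0.0104 ± 0.00773). There the neighbours from Oasl2 through Oas2 differed by less than the larger of their SDs. Oas3, the large synthetase, had 0 counts in the forebrain libraries of Het animal 21 and anti-gp120 animal 8, which allows up to 0.0669 and 0.197 CPM (3 counts per library, counting error only).

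**Figure D1:**
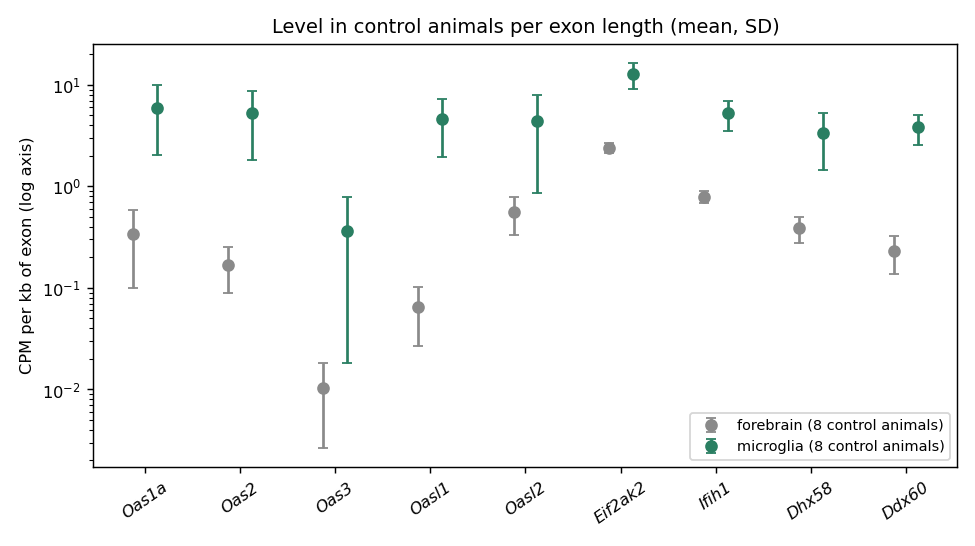
Level of each gene per kb of exon (CPM per kb, log axis) in forebrain and microglia of the 8 control animals; points are means and bars SD. Eif2ak2 is highest in both tissues (12.7 and 2.40) and Oas3 lowest (0.367 and 0.0104).

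With the antibody against IL34 all 9 genes had a higher mean in forebrain than with anti-gp120. Of the 7 that passed the filter on low counts, 5 had arms that did not overlap, all higher with anti-IL34 (Oas2, Oasl2, Eif2ak2, Ifih1 and Ddx60), where 1.03% of 17143 genes were higher without overlap (3.29% in either direction). Since the members were chosen with this contrast known, nothing is read from that count. The means of the 7 differed by 0.57 to 2.95 on the log2 scale (median 1.53, against 0.00 over all genes).

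Among the synthetases, Oas2 in forebrain was at 7.28, 3.32, 3.89 and 5.10 CPM in anti-IL34 animals 2, 10, 11 and 24. With anti-gp120 it was at 1.48, 0.929, 0.263 and 0.842 in animals 1, 7, 8 and 15. All 4 treated libraries stood above all 4 controls, a difference of 2.23 on the log2 scale (SE 0.319). Oas1a ran from 1.61 to 4.48 CPM with anti-IL34 and from 0.0657, a single count, to 1.70 with anti-gp120 (log2 difference 1.53, SE 0.466). Its arms overlapped through anti-gp120 animal 1, and the ratio of arm means was 3.57, or 5.74 without that animal. Oas3 did not pass the filter, and its 6 to 12 counts per treated library (0.142 to 0.780 CPM) overlapped with 0 to 11 counts (0 to 0.146 CPM) in the controls.

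Oasl2, an OAS-like protein with ubiquitin-like domains, differed most. Its forebrain level was 58.1, 23.1, 22.8 and 56.7 CPM in anti-IL34 animals 2, 10, 11 and 24. The anti-gp120 animals 1, 7, 8 and 15 were at 6.93, 4.29, 2.37 and 4.09 CPM. The arms did not overlap (log2 difference 2.95, SE 0.309), and treated animals 2 and 24 stood above treated animals 10 and 11. Oasl1, whose product restrains translation of Irf7 mRNA, stayed under the filter, at 0.259 to 1.23 CPM (5 to 27 counts) with anti-IL34 and 0.130 to 0.301 CPM with anti-gp120.

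The RNA-binding kinase and helicases were also higher in forebrain with anti-IL34. Eif2ak2 was at 37.2, 20.0, 21.9 and 35.6 CPM with anti-IL34 and at 15.3, 12.7, 12.9 and 12.7 with anti-gp120 (log2 difference 1.01, SE 0.185). Ifih1, which encodes the long double-stranded RNA sensor MDA5, was at 22.6, 10.7, 13.4 and 17.3 against 8.28, 6.78, 7.16 and 6.55 CPM (1.08, SE 0.202). Ddx60, a DExD/H-box helicase linked to RIG-I-like receptor signalling, was at 17.3, 6.46, 9.85 and 16.6 against 3.54, 3.03, 1.38 and 1.32 CPM (2.22, SE 0.306). None of these 3 overlapped between arms. Dhx58, which encodes LGP2, the family member without signalling domains, overlapped (1.59 to 3.70 against 1.18 to 2.04 CPM, 0.57, SE 0.303). Without anti-gp120 animal 1, an animal singled out for its values of these genes, 6 of the 8 genes then past the filter had arms apart in forebrain, where 1.67% of all genes were higher without overlap.

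**Figure D2:**
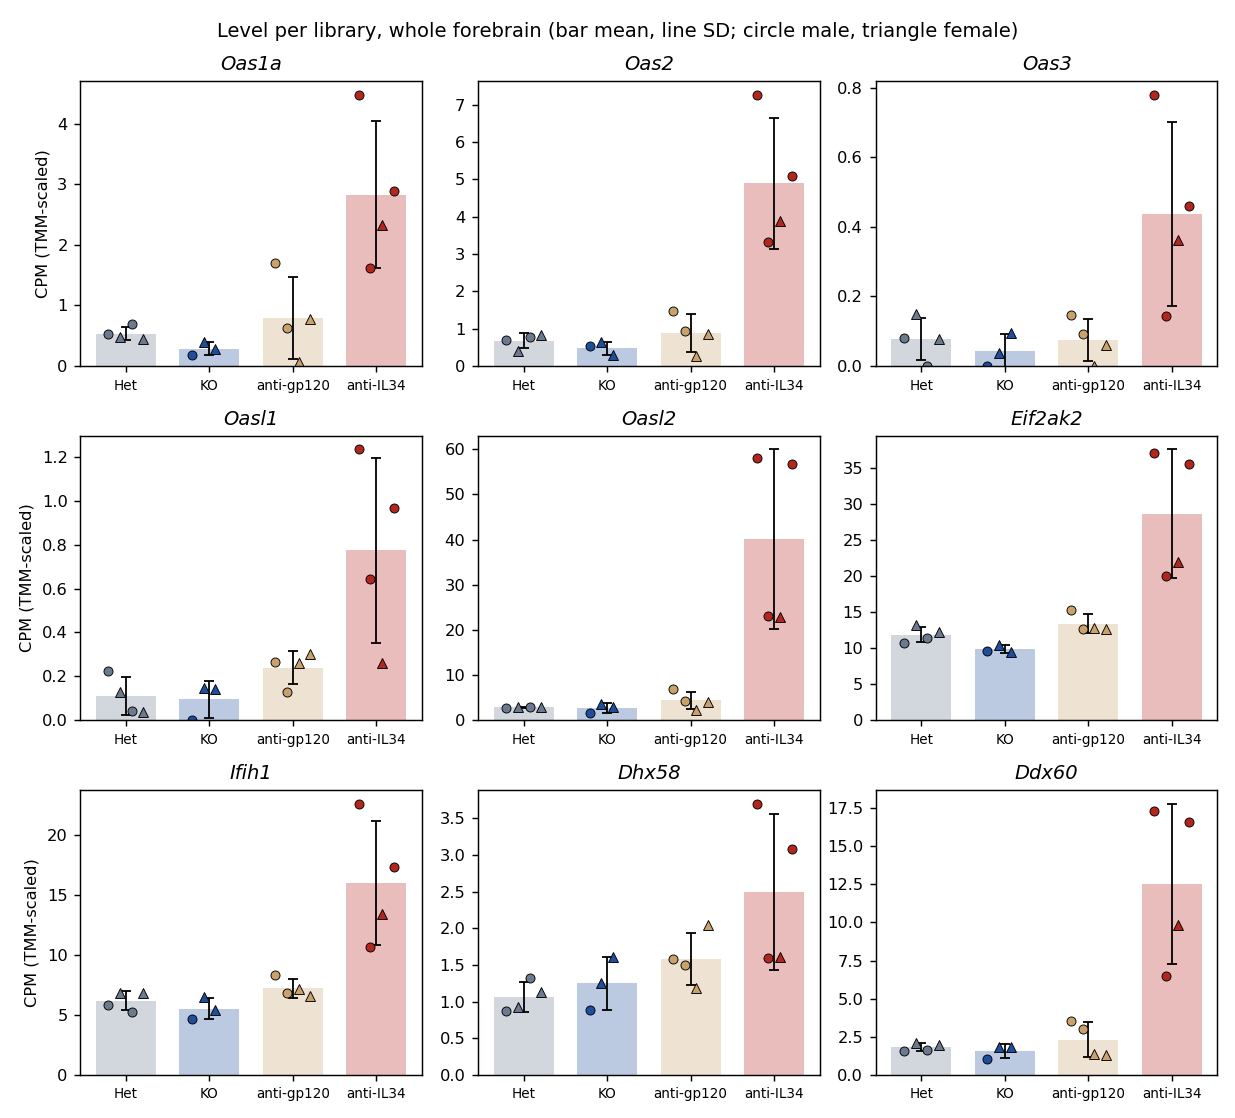
Level of each gene (TMM-scaled CPM, own axis per gene) in each forebrain library by arm; bars are means, lines SD, circles males and triangles females. The 4 anti-IL34 libraries lie above the other 11 for Oas2, Oasl2, Eif2ak2, Ifih1 and Ddx60, while Het and KO lie close together.

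In isolated microglia the 9 genes had higher means with anti-IL34 by 0.98 (Eif2ak2) to 2.22 (Oasl2) on the log2 scale (median 1.82, against 0.06 over all genes). Only Oasl1 had arms that did not overlap, 1 of 9, where 4.78% of 17570 genes were higher without overlap (15.5% in either direction). The overlap came from 1 control and 1 treated animal. Anti-gp120 animal 1 was the highest control for all 9 genes, at 1.81 to 7.17 times the mean of the other 3 controls (median 2.84), and it was above the lowest treated animal, animal 10, for 8 of 9. Without anti-gp120 animal 1 the arms were apart for 9 of 9, where 6.70% of all genes were higher without overlap, and without anti-IL34 animal 10 also for 9 of 9, where 6.30% were. These 2 animals were singled out because the members' own values overlapped through them, so nothing is read from these counts.

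Oasl2 in microglia was at 226, 67.6, 137 and 194 CPM in anti-IL34 animals 2, 10, 11 and 24. In anti-gp120 animals 1, 7, 8 and 15 it was at 77.8, 15.7, 16.4 and 20.9. Animal 10 therefore lay below anti-gp120 animal 1 and above the other controls, and the ratio of arm means was 4.77, or 8.84 without animal 1 (log2 difference 2.22, SE 0.562). Oasl1 was at 69.4, 25.4, 45.6 and 42.9 against 19.2, 7.65, 11.97 and 6.53 CPM (1.99, SE 0.410).

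Among the synthetases too, anti-IL34 animal 10 was the lowest treated animal and anti-gp120 animal 1 the highest control. Oas2 was at 155, 54.1, 138 and 85.1 CPM with anti-IL34 and 57.4, 14.6, 15.9 and 18.2 with anti-gp120 (2.04, SE 0.528). Oas1a was at 57.9, 22.0, 50.4 and 43.9 against 26.7, 8.08, 6.93 and 7.87 CPM (1.82, SE 0.482). Oas3 was at 24.6, 4.401, 10.7 and 16.0 against 9.43, 1.11, 1.26 and 1.57 CPM (1.97, SE 0.711). Without anti-gp120 animal 1 the ratio of arm means went from 4.06 to 6.64 for Oas2, from 3.51 to 5.71 for Oas1a and from 4.17 to 10.6 for Oas3.

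Smaller ratios were seen for the kinase and the helicases. Eif2ak2 was at 153, 84.9, 138 and 148 against 99.4, 54.1, 52.1 and 58.3 CPM, a ratio of arm means of 1.98 (2.39 without animal 1). Ifih1 ran from 59.7 to 138 CPM against 33.3 to 69.0, and Ddx60 from 40.8 to 91.8 against 23.2 to 53.0 (ratios 2.26 and 2.21, or 2.78 and 2.83 without animal 1). Dhx58 ran from 19.0 to 45.4 CPM against 8.01 to 25.1 (ratio 2.63, or 3.84 without animal 1). Dhx58 thus differed by 1.37 on the log2 scale (SE 0.390) in microglia and by 0.57 (SE 0.303) in forebrain, and Ddx60 by 1.13 (SE 0.325) in microglia and 2.22 in forebrain. These differences between the tissues were not tested.

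**Figure D3:**
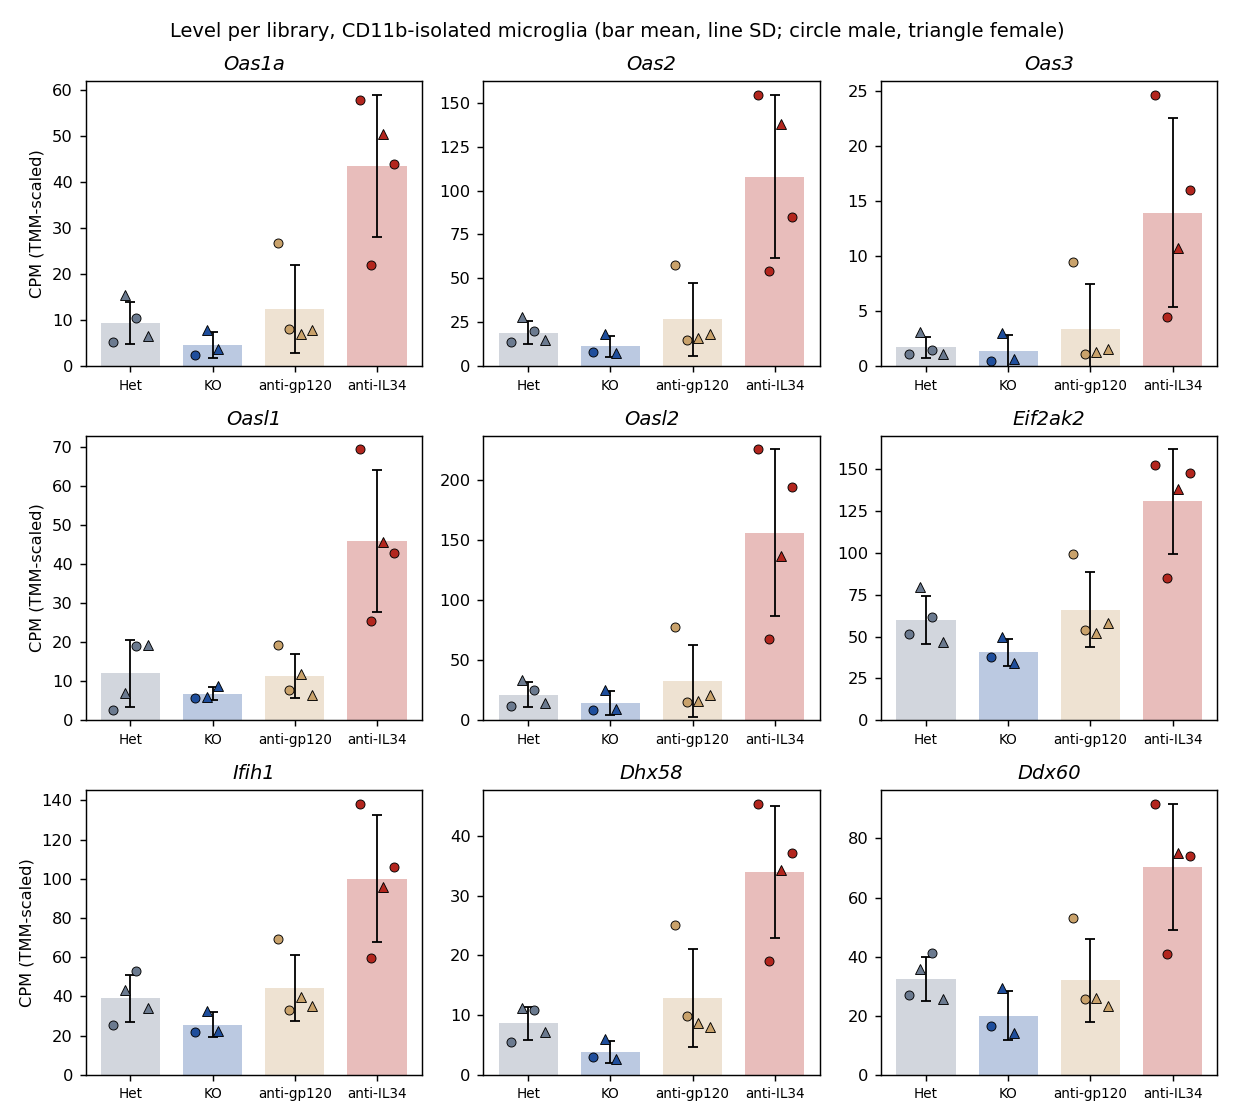
Level of each gene (TMM-scaled CPM, own axis per gene) in each microglia library by arm; bars are means, lines SD, circles males and triangles females. Anti-gp120 animal 1 is the high control point in all 9 panels and anti-IL34 animal 10 the low treated point; Oasl1 is the panel where the arms do not overlap.

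Monocyte markers were high in the same control animal. In the isolates the sum of 3 monocyte markers was 65.0 CPM in anti-gp120 animal 1 against 11.3 to 15.5 in the other controls, and 38.2, 19.1, 33.1 and 42.5 in anti-IL34 animals 2, 10, 11 and 24. Of these Ly6c2, a small part of that sum, was at 4.06 CPM in anti-gp120 animal 1 against 0.291 to 0.945. In forebrain the sum was 1.91 against 0.541 to 0.836, and only 1 of the 3 markers passed the filter on low counts there. In the isolates, neutrophil markers (5 genes) summed to 35.2 to 247 CPM with anti-gp120 and 117 to 412 with anti-IL34. Markers of plasmacytoid dendritic cells (3 genes) and of NK cells (2 genes) stayed at or under 0.876 and 0.244 CPM in the isolates of both arms. Choroid plexus markers (4 genes) ran from 3.32 to 2075 CPM with anti-IL34 and from 3.76 to 6.55 with anti-gp120. Border macrophage markers (4 genes) summed to 261 to 365 CPM with anti-IL34 and 397 to 703 with anti-gp120, without overlap. Neuron markers (6 genes) summed to 420.0 to 728 against 192 to 580 CPM, oligodendrocyte lineage markers (5 genes) to 5741 to 12416 against 3808 to 9475, and astrocyte markers (5 genes) to 2304 to 3977 against 1227 to 3936. In forebrain, border macrophage markers also did not overlap, at 5.78 to 12.1 CPM with anti-IL34 and 13.0 to 19.5 with anti-gp120. The part of these cells in the members' levels was not tested.

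With the default filter on low counts, deletion of Il34 gave no edgeR call for any of the 9 members. In KO forebrain 0 of 7 tested members passed the test (Oas3 and Oasl1 were again under the filter), where 0.620% of 19343 genes did; 2 had an unadjusted p under 0.05 (Oas1a and Eif2ak2; 7.45% of all genes), and DESeq2 called 0. With 1 animal left out that count of 2 ranged from 1 to 3, where 5.73% to 9.13% of all genes had such a p, being 3 without KO animal 6 (6.95% of all genes) and 1 without any one of Het animals 1, 20 and 21 and KO animals 3 and 24. Eif2ak2 was at 9.69, 10.5 and 9.46 CPM in KO animals 3, 6 and 24, against 10.7, 13.2, 11.4 and 12.2 in Het animals 1, 20, 21 and 23. The arms were apart, by −0.28 on the log2 scale (95% interval −0.45 to −0.11, adjusted edgeR p 0.262). Oas1a was at 0.184, 0.387 and 0.284 against 0.526, 0.480, 0.692 and 0.441 CPM, also without overlap (−0.81, interval −1.59 to −0.03, adjusted edgeR p 0.649), on 6 to 33 counts per library. Of all genes, 5.14% were lower in KO without overlap. Oasl2 stood at 1.53, 3.63 and 2.93 CPM in KO and 2.74 to 2.97 in Het (−0.18, interval −0.62 to 0.25, adjusted edgeR p 0.882), and its estimate was 0.17 without KO animal 3. Oligodendrocyte lineage markers (5 genes) summed to 4044 to 4318 CPM in KO forebrain and 4951 to 5927 in Het, without overlap, with 4 of the 5 lower without overlap. Their part in the members' values was not tested.

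In KO microglia 0 of 9 passed by edgeR, where 5.37% of 18185 genes did, and 3 had an unadjusted p under 0.05 (Oas1a, Eif2ak2 and Dhx58; 32.6% of all genes). With 1 animal left out that count of 3 ranged from 0 to 8. It was 8 without KO animal 6 (24.7% of all genes), 0 without KO animal 3 (12.5%) or Het animal 20 (22.3%), and 1 without KO animal 24 (20.4%) or Het animal 21 (35.7%). Over all genes edgeR called 0 without KO animal 3, 6 or 24 or Het animal 20 or 23, although 12.5% to 24.7% of genes then had an unadjusted p under 0.05. It called 31.5% of all genes without Het animal 1 and 17.2% without Het animal 21, and still no member. The arms overlapped for all 9, where 37.7% of genes had arms apart in either direction. Without KO animal 6 the KO arm lay below Het for 8 of 9, where 26.6% of 15596 genes with a mean of at least 1 CPM did; this count was chosen after seeing the data. All 9 estimates were below 0, from −0.58 for Eif2ak2 to −1.24 for Oas1a (median −0.73, against 0.02 over all genes). Dhx58 was at 2.90, 6.00 and 2.697 CPM in KO animals 3, 6 and 24 and at 5.54, 11.1, 10.8 and 7.14 in the Het animals (−1.22, interval −2.11 to −0.33, adjusted edgeR p 0.102). Oas1a was at 2.29, 7.78 and 3.69 against 5.19, 15.3, 10.4 and 6.53 CPM (−1.24, interval −2.32 to −0.15, adjusted edgeR p 0.132). KO animal 6 was the highest of its arm for 8 of 9 genes. With no filter on low counts edgeR called Dhx58 (adjusted p 0.0441), 1 of 9 where 6.78% of all genes were called. DESeq2 with the same design called both Oas1a (adjusted p 0.0400) and Dhx58 (adjusted p 0.0182), 2 of 9 where it called 24.2% of genes with an adjusted p, so both counts are near the background. In simulated data the test found 19% of genes changed 2-fold in this comparison and 84% of those changed 4-fold, against 83% and 97% in the KO comparison of forebrain.

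In KO microglia 8 of the 9 genes, all but Oasl1, overlapped with Het through KO animal 6 alone. Oas2 was at 8.06, 18.1 and 7.28 CPM against 13.6 to 27.8 in Het, Oasl2 at 8.28, 25.6 and 9.62 against 12.2 to 34.0, and Ddx60 at 16.5, 29.4 and 14.1 against 25.7 to 41.1. Microglia marker sums were lower in every KO isolate than in every Het isolate, as given above. Astrocyte markers (5 genes) summed to 3203 to 3313 CPM in KO isolates and 938 to 2595 in Het, without overlap. Of the 5, 4 were higher without overlap, where 18.0% of all genes were. Neuron markers (6 genes) summed to 365 to 603 against 108 to 403 CPM and oligodendrocyte lineage markers (5 genes) to 7342 to 17096 against 2880 to 9523. The part of these cells in the members' values was not tested. The KO difference itself was not shown to differ between tissues for any of 9 members, where 2.98% of 20107 genes passed the edgeR interaction test; 1 had an unadjusted p under 0.05 (31.0% of all genes), Dhx58 (−1.35, interval −2.46 to −0.24, adjusted edgeR p 0.114; DESeq2 adjusted p 0.0378, where DESeq2 called 22.4% of genes). No member passed for a difference between the sexes, in forebrain or in microglia (0 of 9 each by edgeR and by DESeq2, 0 at an unadjusted p under 0.05), where 0.0710% and 0.0534% of genes passed and 4.34% and 0.934% had an unadjusted p under 0.05.

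**Figure D4:**
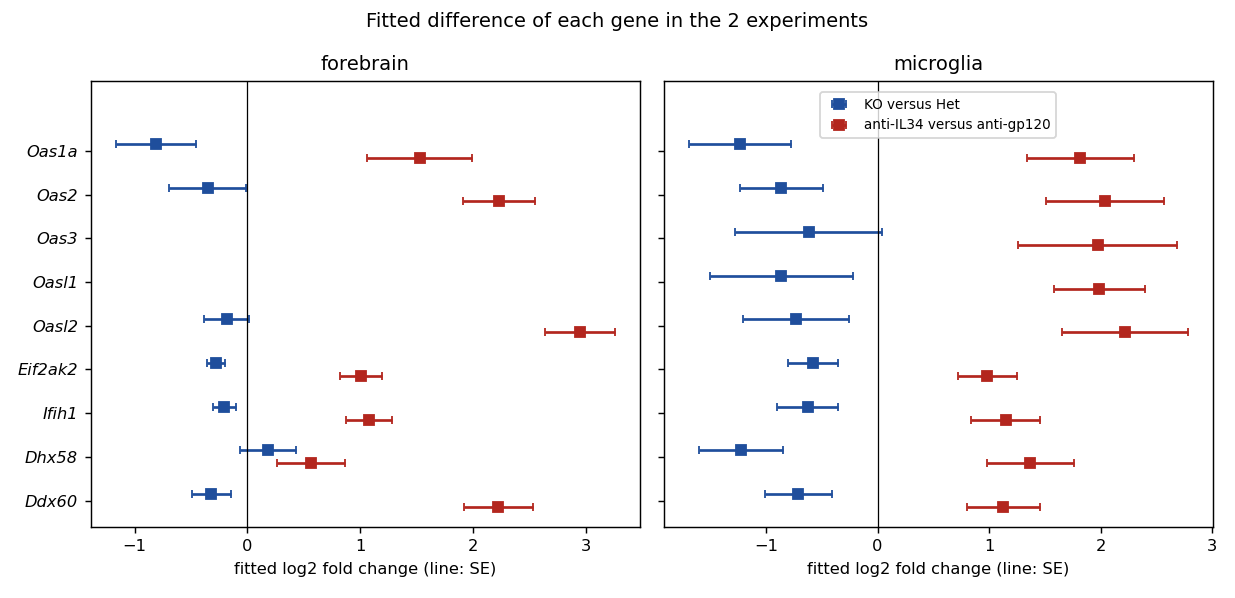
Fitted log2 fold change (x axis, line: SE) of each gene for KO versus Het and for anti-IL34 versus anti-gp120, in forebrain and microglia. The antibody estimates lie above 0 for every fitted gene, and the KO estimates below 0 for every gene except Dhx58 in forebrain (0.18); Oas3 and Oasl1 were under the filter in forebrain.

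Which animal was high within an arm was largely shared between genes. Anti-IL34 animal 2 had the highest level of 9 of 9 genes in its arm in both tissues, and animal 10 the lowest of 9 of 9 in microglia and 7 of 9 in forebrain. Anti-gp120 animal 1 was highest for 9 of 9 in microglia and 7 of 9 in forebrain, and KO animal 6 for 8 of 9 and 7 of 9. Among the Het animals the order was less uniform, animal 20 being highest for 6 of 9 genes in microglia and 4 of 9 in forebrain.

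The genes whose levels were most like the mean of the 9 were sought over 15 libraries of a tissue after each arm's mean was subtracted. In forebrain they included Usp18 (r = 0.97), which removes ISG15 from proteins and dampens interferon receptor signalling, Gbp3 (0.94), a guanylate-binding protein, Ifit1 (0.93), an interferon-induced RNA-binding protein, and Hapln2 (0.92), a link protein of the brain's extracellular matrix, among 15533 genes with a median r of −0.02. In microglia they were Sp100 (r = 0.98), Rnf213 (0.98), Ifi213 (0.98), Lgals3bp (0.98) and Ifi209 (0.98), among 15587 genes with a median r of 0.07. The points share libraries, so these values are descriptions.

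The wider pathway was taken from lists of related genes. The lists too were chosen with earlier results of these data known. Their counts in the antibody arms, here and below, are descriptions, and nothing is read from them. Of 7 other Oas1 genes 2 passed the filter in forebrain, and 1 of them, Oas1b, was higher without overlap in forebrain with anti-IL34 (2.49 to 7.73 against 0.657 to 1.36 CPM; log2 difference 2.09, SE 0.290), against 1.03% of all genes. Abce1, a ribosome recycling factor, was lower without overlap in microglia with anti-IL34, with a log2 difference of −0.21, the 1 of 3 genes of its list that was apart, where 15.5% of all genes were apart in either direction.

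In RIG-I-like receptor and TLR3 signalling 3 of 12 genes were higher without overlap in forebrain with anti-IL34, against 1.03% of all genes. They were Irf7, the interferon-induced transcription factor of interferon genes (2.17, SE 0.310), Rigi, which encodes the sister receptor RIG-I (1.08, SE 0.227), and Trim25, its ubiquitin ligase (0.47, SE 0.144). In microglia Irf7 was the 1 of 12 that was higher without overlap, against 4.78% of all genes, at 131, 44.0, 79.5 and 101 CPM with anti-IL34 and 39.1, 9.69, 8.32 and 9.70 with anti-gp120. In control animals all 12 passed as higher in microglia, where 40.5% of all genes did, among them Mavs (2.62, adjusted edgeR p 6.62e-14), Rnf135 and Tlr3. None of the 11 tested passed in KO forebrain, where 0.620% of all genes did, and none of 12 in KO microglia, where 5.37% did. The KO difference of Tbk1 was lower in microglia than in forebrain (−0.92, SE 0.209, adjusted edgeR p 0.0425), 1 of 12 where 2.98% of all genes passed.

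Of 9 genes of the eIF2 alpha kinases and stress response, none was apart in forebrain with anti-IL34 and Eif2s1 was lower in microglia (−0.30, SE 0.113), 1 of 9 where 15.5% of all genes were apart in either direction. Eif2ak4, which encodes the amino acid sensor GCN2, fell in KO microglia (−0.66, SE 0.128, adjusted edgeR p 0.0367), 1 of 9 where 5.37% of all genes passed. Both counts are near the background. Of 10 genes of RNA editing, processing and decay, Pnpt1 (0.25) and Skic3 (0.11) were higher without overlap in forebrain with anti-IL34, against 1.03% of all genes. In microglia Pnpt1 was higher (0.41), and Stau1 (−0.42) and Dhx9 (−0.40) were lower, 3 of 10 apart where 15.5% of all genes were apart in either direction.

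Of 10 interferon receptors and transducers, 3 were higher without overlap in forebrain with anti-IL34, against 1.03% of all genes, among them Irf9 (0.86, SE 0.163) and Stat2 (0.54, SE 0.141), and Ifngr1 was lower (−0.47, SE 0.0986). Ifngr1, the ligand-binding chain of the interferon gamma receptor, was also lower without overlap in microglia (−0.78, SE 0.174), the 1 of 10 that was apart where 15.5% of all genes were apart in either direction, so the list's count is near the background. It fell in KO microglia (−1.29, SE 0.166, adjusted edgeR p 0.0146), by more than in KO forebrain (interaction −0.99, SE 0.176, adjusted edgeR p 0.0205), in each case 1 of 10, where 5.37% and 2.98% of all genes passed. As no gene passed edgeR for KO in microglia, or for its difference from forebrain, without KO animal 3, 6 or 24 or Het animal 20 or 23, the calls of Ifngr1, Eif2ak4 and Tbk1 are lost without any one of these animals. With the animal as a block no gene passed for the difference between tissues (28.2% of all genes had an unadjusted p under 0.05), so there Tbk1 and Ifngr1 did not pass either. Of 11 interferon genes only Ifnb1 passed the filter, in microglia. It had 33, 48, 51 and 25 counts in anti-IL34 animals 2, 10, 11 and 24 and 24, 7, 6 and 12 in anti-gp120 animals 1, 7, 8 and 15. Its levels of 1.02 to 1.74 CPM with anti-IL34 and 0.350 to 0.488 with anti-gp120 did not overlap. Of all genes, 4.78% were higher without overlap in that comparison. Het animals 21 and 23 also stood above those controls, at 0.702 and 0.636 CPM. In all 15 forebrain libraries Ifnb1 had 0 counts, which allows up to 0.0397 to 0.197 CPM.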

How the data were processed

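RNA of whole forebrain and CD11b-isolated cells was turned into libraries with Takara's SMART-Seq kit for low input, per the labels' protocols. The authors deposited a table of whole-number read counts per gene; STAR 2.7.5c, featureCounts 1.6.3, R 4.4.0 and GRCm38 are named in the submitters' processing notes, and strand setting and annotation are not given in the sources used here. The deposited Length, a unit of its own, was the gene span with introns for 51183 of 51498 genes matched to GENCODE M21, so counts may hold intronic reads, and levels per kb here use exon length. Of the count columns, 6 matched no labels and were not used; the deposited TPM values were not used.

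Counts were fitted with edgeR 4.0.16 in R 4.3.3 (TMM, default filter on the group, quasi-likelihood test, Benjamini-Hochberg over all genes at 0.05, sex as covariate; arm as covariate in the test of sex, and experiment too in the contrast of tissues). SE is the log2 fold change over the square root of F. CPM is TMM-scaled over the 15 libraries of a tissue, or over the 16 control libraries where tissues are compared. Alternatives were DESeq2 1.42.0, RLE scaling, no filter, no sex term, 1 fit per tissue, each animal left out and the animal as a block. The scripts were tested on simulated data. Depth limits genes under about 1 CPM. Each library is a separate animal within an arm.

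The members and lists were chosen with earlier results of these data known. All members are named; of the pathway lists at most 3 genes per list and comparison, by smallest p, or in the antibody arms by size among genes whose arms do not overlap; and the 5 most like genes per tissue. Some genes that these rules name are not reported here. Forebrain and microglia libraries share the animal, and their deviations correlated with a median r of 0.16 over 17778 genes (0.0613 to 0.240, above 0.1 in 12 of 15 animals), against −0.06 between animals.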

Additional observations from a re-analysis of the deposited data

Results flagged for a closer look

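Anti-gp120 animal 1 lay far above the other 3 control animals in microglia. Its gap to the next library, as a share of the arm's range, was 0.94 for Oas3 (9.43 CPM), 0.94 for Oas1a (26.7 CPM), 0.92 for Oas2 (57.4 CPM), 0.92 for Oasl2 (77.8 CPM), 0.91 for Ddx60 (53.0 CPM), 0.89 for Dhx58 (25.1 CPM) and 0.87 for Eif2ak2 (99.4 CPM), above Dixon's 95% critical value for 4 libraries. In forebrain the same animal stood apart for Eif2ak2 (0.93, at 15.3 CPM). The lowest Het animal, animal 1, stood apart for Oasl2 in forebrain (0.88), at 2.74 CPM against 2.95 to 2.97. These are 9 of 54 arms of 4 libraries, and for normally distributed values chance alone gives about 1 in 20, or 5%. The gaps were taken on CPM and not on a log scale, where they could differ. The 9 genes share libraries, so the flags are not independent.

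For 10 of 18 combinations of gene and tissue, every KO library lay below the Het mean and every anti-IL34 library above the anti-gp120 mean. The share of all genes that do so was not counted, so nothing is read from that count. The mean log2 difference with anti-IL34 less that with KO was 3.04 for Oas1a, 3.02 for Oas2 and 1.31 for Eif2ak2 in forebrain. In microglia it was 3.04 for Oas1a, 2.99 for Oas2, 2.68 for Dhx58, 2.49 for Oasl1, 1.91 for Ddx60, 1.75 for Ifih1 and 1.55 for Eif2ak2. These differences were not tested, and the antibody side of each had been used to choose the genes. On the KO side edgeR with the default filter called none of these genes.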

How the results depend on the processing

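Over all alternatives run, 106 counts of members stayed within 1.5 times the reported count and 5 did not. Among single-gene values and likeness counts 508 were classed as the same, 3 moved, 2 reversed direction and 4 passed the threshold that had not. Being classed as the same does not mean an unchanged size. For example, Oas3 in KO microglia (−0.62 on the log2 scale) ran from −1.57 to −0.18 over 12 alternatives. Oas1a in forebrain with anti-IL34 (1.53) ran from 1.25 to 2.25. In KO microglia the count of members called was 1 with no filter on low counts (Dhx58, adjusted p 0.0441) and 2 with DESeq2, and for the difference between tissues it was 1 with DESeq2; the cause was not tested. Oasl2 in KO forebrain was −0.18, −0.44 to 0.17 with 1 animal left out (0.17 without KO animal 3) and 0.0043 with all 15 libraries in 1 fit, and the cause was not tested. With 1 animal left out, the members whose antibody arms do not overlap numbered 1 to 9 in microglia (9 without anti-gp120 animal 1 or anti-IL34 animal 10) and 5 to 6 in forebrain; the counts called stayed at 0 for KO in both tissues, for the tissue difference and for sex, and at 9 for microglia against forebrain. With the animal as a replicate block 9 members still passed in microglia against forebrain and 0 in the tissue difference, so the pairing changed no call of a member, whereas over all genes the count of the tissue difference fell from 599 to 0. Of the 5 most like genes, Spearman's rank correlation shared 3 in forebrain and 2 in microglia, and leaving arm means in shared 4 and 3. Depth limits Oas3 and Oasl1 in forebrain.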
